A study of Mus musculus with 21 samples.

Results

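Granulocyte-macrophage progenitors (GMP) and the pre-granulocyte-macrophage progenitors (PreGM) that come before them were compared on the 3 arrays of each fraction, 6 of the 21 arrays of the series. The arrays were chosen by their titles, and no measured value was used to choose them. Bone marrow of C57BL/6 mice was the source of both fractions. Their age, sex and genotype are not in the labels, which name no treatment. Total RNA was amplified with Cy3 and hybridised in 1 colour to Agilent whole mouse genome arrays, together with synthetic spike-in RNA. Per the labels both fractions were negative for the lineage antigens (B220, CD3, CD4, CD8, CD41, Mac1, Gr1 and Ter119), positive for Kit and Sca1, and negative for CD150. PreGM cells were in addition negative for CD105 and for the Fc gamma receptors I/II (written FGCrI/II and FCGrI/II), and GMP cells were positive for those receptors. The labels give the colony-forming erythroid fraction (CFUe) the same antigens as PreGM. The step was also set against the second erythroid step, from PreMegE to CFUe (3 arrays each). The labels do not say whether arrays of a fraction came from separate mice. PreGM replicate 3 differed from the other PreGM arrays in sex-linked transcripts, as given below. The p-values rest on the spread between arrays of a fraction, pooled over all fractions of the series, and that spread may in part be technical.

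In the marrow, GMP cells give rise to neutrophils, monocytes and the other granulocytes. Granule proteins are made in waves during this maturation: the primary granule proteases and myeloperoxidase first, the secondary and tertiary granule proteins later. C/EBP factors, PU.1 and Gfi1 are the factors best known for driving the granulocytic genes, while GATA factors serve the erythroid, megakaryocytic, mast cell and eosinophil lineages.

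Levels below are on the log2 scale and are centred so that 0 is the 75th percentile of the signals of that array, with the background already subtracted. A change is the mean level in GMP minus that in PreGM, on the log2 scale, with its SE from limma, and a gene is said to have risen or fallen where the adjusted p was under 0.05 and the change at least 2-fold. Of 29527 probes tested, 1183 (4.01%) were higher and 1878 (6.36%) lower in GMP. With 1 probe per gene, 660 of 14312 genes (4.61%) were higher and 938 (6.55%) lower, and the median change of all genes was 0.03. These shares are the background for the counts of every gene list below. The GMP arrays lay entirely above the PreGM arrays for 26.5% of the genes and entirely below them for 20.5%. These directions are relative to the 75th percentile. The spike-in RNA stood lower against that percentile on the GMP arrays, and scaling to it moved the median change of all probes from -0.02 to 0.99 and the share of calls that were higher from 38.6% to 96.5% (14011 higher, 505 lower). A change below is therefore a change relative to the bulk of the transcripts. On slide 2, which held GMP replicate 1 and PreGM replicate 1, all 215 called list genes had the direction of the whole comparison. Both arrays were part of the fit that made these calls, so this is not an independent check for an effect of the slide. In sorted bulk RNA, fewer cells that express a gene and less RNA of it per cell cannot be told apart.

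PreGM replicate 3 stood apart from the other 5 arrays. Xist, the transcript of the inactive X chromosome, stood at 5.53, 5.61 and -6.71 in PreGM and at 4.97, 5.0 and 5.10 in GMP, and the Y-linked Ddx3y at -6.17, -7.22 and 1.41 and -7.30, -7.73 and -7.58. That array thus lacked Xist and carried Y-linked transcripts, and the others did the reverse. It also held more of several late granule transcripts: Ltf (lactoferrin) stood at -3.79, -3.75 and -0.12 in PreGM and -3.19, -4.13 and -4.0 in GMP, and Ngp at -3.53, -3.64 and -0.65 and -1.04, -1.76 and -1.25. It held less of some immediate early and stress genes, as for Nr4a1 at 7.31, 7.30 and 5.14 in PreGM and 3.74, 3.63 and 3.44 in GMP. In all, 854 genes differed at least 2-fold between PreGM replicate 3 and the mean of the other 2 PreGM arrays, against 362 between those 2. Without it 3147 probes were called (1180 higher, 1967 lower) in place of 3061. GMP replicate 3 differed from the mean of its pair at 1407 genes (452 between that pair), with 76.5% of its probes well above background against 62.2% and 64.5%, and without it 3498 probes were called (1108 higher, 2390 lower). The part of sex or of sort purity in the results was not tested.

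**Figure D1:**
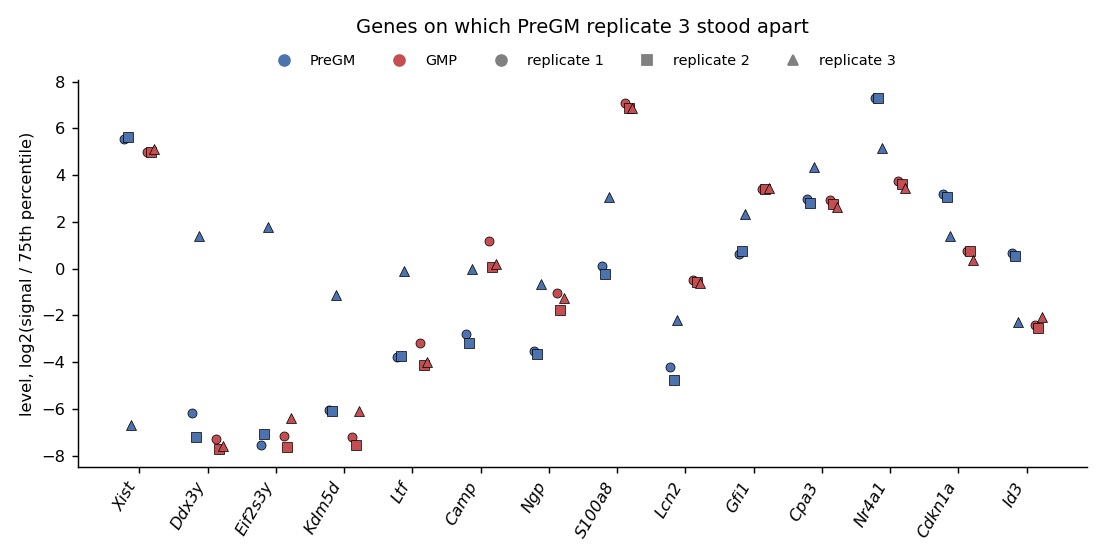
Level (log2 of signal over the 75th percentile, y axis) of 14 genes on each PreGM array (blue) and GMP array (red), with a circle, square and triangle for replicates 1, 2 and 3. The genes were picked to show where PreGM replicate 3, the blue triangle, stood away from the other 2 PreGM arrays, for Xist at -6.71 against 5.53 and 5.61. They are therefore an illustration and not a sample of all genes.

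The gate was visible in the transcripts only in part. Fcgr3, which encodes an activating Fc gamma receptor, stood at -0.67, -0.73 and 0.54 on the PreGM arrays and at 3.38, 3.41 and 3.19 on the GMP arrays and rose by 3.61 ± 0.39 (adjusted p 3.3e-06). Fcgr2b, the inhibitory receptor, rose by 1.75 ± 0.45 (adjusted p 0.00823), from 0.93, 0.78 and 1.07 to 2.79, 2.71 and 2.52. Neither overlapped between the fractions. The sort itself used Fc gamma receptors, written I/II in the labels, which do not name receptor III, the product of Fcgr3. The high-affinity receptor Fcgr1, at -3.88, -3.83 and -2.96 in PreGM and -3.48, -3.49 and -2.62 in GMP, did not pass (change 0.36 ± 0.39). Eng, which encodes CD105, fell by 1.49 ± 0.11 (adjusted p 6.27e-08), from 1.64, 1.71 and 1.68 in PreGM to 0.08, 0.33 and 0.15. The labels call PreGM, the fraction with the higher level, negative for CD105. Ly6a, the transcript of Sca1, was higher in GMP at 2.07, 2.09 and 2.13 than in PreGM at -0.42, -0.23 and -0.28 (change 2.40 ± 0.37, adjusted p 0.000108), although the labels call both fractions positive, and KLS, the most immature fraction, stood at 2.57. Slamf1, which encodes CD150, was not well above background on any of the 6 arrays. Cd34 stood at 7.06, 7.10 and 6.98 in PreGM and 5.75, 5.88 and 5.89 in GMP and did not pass (change -1.2 ± 0.72, adjusted p 0.248), though its arrays did not overlap. Of 8 lineage antigen genes none rose and 2 fell, 1 of them below background in both fractions, where 6.55% of all genes fell. Only 1 fell without PreGM replicate 3, GMP replicate 1 or GMP replicate 2. Itga2b (CD41) fell by 1.97 ± 0.26 and Itgam (Mac1) stood at -1.78, -1.59 and -1.57 and -0.56, -0.84 and -0.59 (change 0.98 ± 0.38, adjusted p 0.0676). Kit had no matched probe.

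Several of the primary granule proteases rose, while myeloperoxidase was already high in PreGM. Of 12 genes tested, 6 rose and none fell (median change 1.16), and the counts were the same without PreGM replicate 3 or GMP replicate 3. Over all genes, 4.61% were called higher. Elane (neutrophil elastase) stood at 2.21, 1.77 and 3.32 in PreGM and at 6.58, 6.63 and 6.41 in GMP and rose by 4.11 ± 0.52 (adjusted p 1.6e-05). Ms4a3, a membrane protein of granulocyte progenitors, rose by 3.33 ± 0.49 (adjusted p 7.84e-05), from 3.57, 3.10 and 4.76 to 7.10, 7.20 and 7.12. In both genes PreGM replicate 3 was the highest PreGM array and still lay below every GMP array. Prss57, a serine protease stored in the same granules, rose by 2.38 ± 0.39, Prtn3 (proteinase 3) by 1.98 ± 0.40, Cd63, a granule membrane protein, by 1.89 ± 0.34, and Ctsc, which activates the granule proteases, by 1.26 ± 0.23. By contrast Mpo (myeloperoxidase) was already at 9.27, 9.19 and 9.37 in PreGM and stood at 8.98, 9.34 and 9.26 in GMP, a change of -0.08 ± 0.60 (adjusted p 0.948), with no spot saturated. Ctsg (cathepsin G) stood at 7.90, 7.75 and 8.20 in PreGM and 8.64, 8.87 and 8.83 in GMP, which did not overlap but did not pass (change 0.83 ± 0.53, adjusted p 0.288). The SE comes from a spread shared by all 7 fractions, and over the 3 CFUe arrays the SD was 1.95 for Mpo and 1.70 for Ctsg. Serpinb1a, an inhibitor of the granule proteases, changed by 1.06 ± 0.43 (adjusted p 0.0785), Srgn, the proteoglycan that packs them, by 0.75 ± 0.15 (adjusted p 0.00148, under 2-fold), and the lysozyme genes Lyz1 and Lyz2, whose probes may not tell the copies apart, by 0.25 ± 0.55 and 0.17 ± 0.60. Bpi was not tested.

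The 250 bases upstream of the start site are shown for the 4 called primary granule genes with the largest rise that have a RefSeq promoter (assembly GRCm38.p6), since these genes rose together. They lie at chr10:79886062-79886311 (Elane, plus strand), chr19:11640852-11641101 (Ms4a3, minus strand), chr10:79879417-79879666 (Prtn3, plus strand) and chr10:128909095-128909344 (Cd63, plus strand), and are written 5′ to 3′ on the strand of the gene. Capitals mark matches on either strand to short letter strings that such factors are known to bind. For the C/EBP family these were TTGCNNA. For PU.1, encoded by Spi1, the string searched was GGAAGTG. For the erythroid and mast cell family of GATA factors it was AGATAA. No matches overlapped in these promoters. Ms4a3 and Prtn3 each held 1 match, to the PU.1 letters on the strand shown, and Elane and Cd63 held none, which says only that these letters are not in the window. Over the 27025 mouse promoters of this length, 33.0% held the C/EBP letters, 8.64% the PU.1 letters and 10.3% the GATA letters. Among the 518 genes that rose and have a promoter the shares were 35.7%, 11.6% and 8.30%, among the 714 that fell 27.0%, 8.40% and 7.84%, and among the 11442 genes tested 29.2%, 10.8% and 6.90%. A match is a description of the letters and was not tested as a site.
Elane: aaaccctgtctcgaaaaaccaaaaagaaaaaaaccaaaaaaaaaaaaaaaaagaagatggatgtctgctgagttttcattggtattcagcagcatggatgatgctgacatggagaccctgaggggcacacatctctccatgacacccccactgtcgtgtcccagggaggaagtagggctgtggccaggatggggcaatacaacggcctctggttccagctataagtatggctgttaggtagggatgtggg
Ms4a3: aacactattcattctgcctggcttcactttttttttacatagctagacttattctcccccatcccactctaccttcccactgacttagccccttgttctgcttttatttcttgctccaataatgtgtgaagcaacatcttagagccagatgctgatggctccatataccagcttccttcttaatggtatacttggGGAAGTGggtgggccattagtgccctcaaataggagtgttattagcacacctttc
Prtn3: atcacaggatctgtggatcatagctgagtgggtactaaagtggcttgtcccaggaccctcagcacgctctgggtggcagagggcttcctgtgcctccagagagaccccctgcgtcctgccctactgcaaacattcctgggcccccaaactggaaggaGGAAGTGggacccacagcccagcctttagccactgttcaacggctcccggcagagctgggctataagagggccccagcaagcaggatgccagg
Cd63: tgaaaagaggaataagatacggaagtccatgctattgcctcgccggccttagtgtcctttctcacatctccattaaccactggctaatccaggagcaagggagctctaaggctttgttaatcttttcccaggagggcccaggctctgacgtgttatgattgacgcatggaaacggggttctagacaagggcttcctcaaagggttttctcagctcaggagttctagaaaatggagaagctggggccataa

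Secondary and tertiary granule genes rose as a group, from low levels. Of 13 tested, 8 rose and none fell (median change 2.47); without PreGM replicate 3 the count was 9 and the median 3.11. Their summed signal, in multiples of the 75th percentile, was 11.5, 8.97 and 18.8 on the PreGM arrays and 118, 117 and 101 on the GMP arrays. Wfdc21, a secreted protein of the WAP domain family, stood at -3.47, -3.93 and -0.52 in PreGM and 4.03, 3.99 and 4.01 in GMP and rose by 6.65 ± 0.67 (adjusted p 1.45e-06). Fcnb, a ficolin of neutrophil granules, stood at -4.89, -5.35 and -3.59 in PreGM and 1.92, 1.62 and 1.48 in GMP and rose by 6.28 ± 0.42 (adjusted p 1.41e-08). Pglyrp1, which binds bacterial peptidoglycan, rose by 3.84 ± 0.43 and Chil3 (Ym1) by 3.47 ± 0.54. The latest genes of this programme did not all follow. Ltf, in the levels given above, changed by -1.22 ± 0.81 (adjusted p 0.306), Ngp by 1.26 ± 0.67 (adjusted p 0.191; 2.23 and past the threshold without PreGM replicate 3), and Mmp8, the neutrophil collagenase, stood at -2.54, -2.76 and -2.63 and -3.74, -3.55 and -2.95 (change -0.77 ± 0.49). These 3 were named after their values were seen. In the mature Mac1Gr1 fraction Ltf stood at 9.75, Ngp at 9.25 and Mmp8 at 8.23.

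The S100 calcium-binding proteins moved in opposite directions: 3 of 8 rose and 3 fell. S100a8 and S100a9, the subunits of calprotectin, were among the largest rises. S100a8 stood at 0.11, -0.23 and 3.07 in PreGM and 7.10, 6.88 and 6.88 in GMP (change 5.97 ± 0.68, adjusted p 5.31e-06), and S100a9 at 1.74, 1.14 and 4.46 and 7.27, 6.88 and 6.78 (change 4.53 ± 0.68, adjusted p 0.000102). PreGM replicate 3 was the high PreGM array in both. S100a11 rose by 1.56 ± 0.26, whereas S100a4 fell by 1.49 ± 0.35 (adjusted p 0.0046), S100a6 by 1.31 ± 0.22 and S100a10 by 1.12 ± 0.28.

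The eosinophil granule genes gave the widest rises of any list. All 11 tested had a positive change, and 7 rose. With only probes well above background on all compared arrays, 5 were tested and 4 rose. The median change was 5.68, 3.61 under normexp, or 4.85 with genes below background in PreGM taken at their bound. Prg2, the major basic protein of the eosinophil granule, stood at -2.80, -4.44 and -4.78 in PreGM and 5.20, 4.94 and 4.56 in GMP and rose by 8.91 ± 0.53 (adjusted p 4.07e-09), the largest rise named. Rnase2a, an eosinophil ribonuclease, rose by 6.59 ± 0.29, Prg3, a second major basic protein, by 5.68 ± 0.31 and Epx (eosinophil peroxidase) by 3.93 ± 0.40. A further 3 ribonucleases of this family were not well above background on any PreGM array. They were at least 102-fold (Ear1), 61.4-fold (Ear6) and 28.8-fold (Ear10) higher in GMP. Such a bound sets the GMP mean against, per PreGM array, the lowest signal of any probe well above background or the signal of the probe itself, whichever is higher, and the same is done for genes below background in GMP. These ribonucleases are close copies, and their probes may share signal. Il5ra, the receptor that marks committed eosinophil precursors, was well above background on no PreGM array and on 2 of 3 GMP arrays, at -5.26, -4.57 and -5.20, and was not called (adjusted p 0.505), and Siglecf stood at -0.15, -0.28 and 0.75 in PreGM and 0.70, 0.47 and 0.59 in GMP (change 0.48 ± 0.56).

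Mast cell and basophil genes rose in part, with 6 of 13 higher and 1 lower (none lower without PreGM replicate 3 or GMP replicate 3). The single fall lies near the share of all genes, of which 4.61% rose and 6.55% fell. Prss34, a basophil protease, stood at -3.57, -3.36 and -3.02 in PreGM and 2.0, 1.84 and 1.47 in GMP and rose by 5.09 ± 0.24 (adjusted p 3.57e-10). Gzmb (granzyme B) rose by 3.93 ± 0.41, from -3.20, -3.24 and -1.44 to 1.44, 1.35 and 1.13, and Cma1 (a mast cell chymase) by 2.94 ± 0.21. Mitf, a factor of mast cells, rose by 3.33 ± 0.70, but its 2 probes gave changes between 0.51 and 3.33. Cpa3, the mast cell carboxypeptidase, stood at 2.99, 2.79 and 4.36 in PreGM and 2.95, 2.74 and 2.63 in GMP (change -0.60 ± 0.67), and Mcpt8, a basophil protease, at 1.66, 1.56 and 2.30 and 2.50, 2.70 and 2.59 (change 0.75 ± 0.37, adjusted p 0.153).

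**Figure D2:**
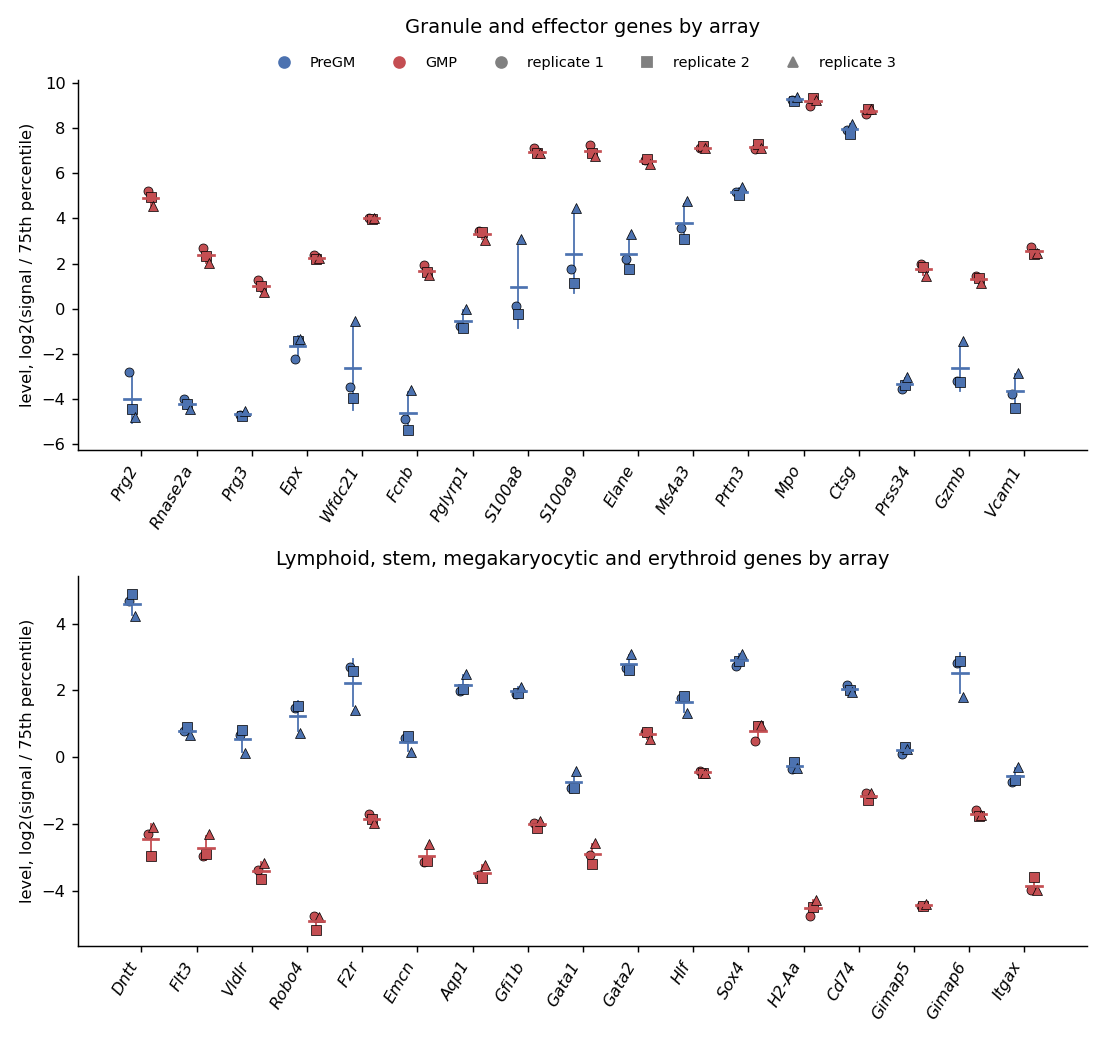
Level (log2 of signal over the 75th percentile, y axis) of 17 granule and effector genes (top) and 17 lymphoid, stem, megakaryocytic, erythroid and antigen presentation genes (bottom) on each PreGM (blue) and GMP (red) array, with symbols for replicates 1 to 3, the mean as a bar and the SD as a line. The fractions do not overlap for any gene shown but Mpo.

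Monocyte genes were mostly expressed in both fractions, and 4 of 16 rose with none lower (median change 0.16). Ly6c1 stood at 2.59, 2.40 and 3.49 in PreGM and 6.47, 6.56 and 6.62 in GMP (change 3.73 ± 0.53, adjusted p 5.45e-05), and Ly6c2, a close copy whose probe may share signal, at 5.02, 4.80 and 5.79 and 8.20, 8.37 and 8.10 (change 3.02 ± 0.41). Cd14, the lipopolysaccharide co-receptor, rose by 2.66 ± 0.39 and Ms4a6d by 1.63 ± 0.35. Csf1r, the receptor for M-CSF, stood at 2.67, 2.45 and 2.42 in PreGM and 2.67, 2.69 and 2.60 in GMP and changed by 0.14 ± 0.28, and the chemokine receptor Ccr2 changed by 0.18 ± 0.34.

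Among macrophage genes 5 of 15 rose and 1 fell (median change 0.70, -0.01 under the normexp background correction). Of all genes 4.61% rose and 6.55% fell, and the single fall lies near that share. Vcam1, an adhesion molecule of marrow macrophages, stroma and some progenitors, stood at -3.76, -4.38 and -2.84 in PreGM and 2.73, 2.43 and 2.49 in GMP and rose by 6.21 ± 0.43 (adjusted p 2.15e-08); it was also high in KLS, at 3.46. Slc40a1, the iron exporter ferroportin, rose by 3.89 ± 0.35, Cd5l by 1.90 ± 0.51 and Adgre1 (F4/80) by 1.83 ± 0.35. Cd163, the haemoglobin scavenger receptor, fell by 1.69 ± 0.36. The complement genes C1qb and C1qc stayed low, at -2.46, -2.16 and -2.55 and -3.89, -4.47 and -4.24 in PreGM and -2.32, -2.48 and -2.10 and -4.06, -3.38 and -3.67 in GMP, and the summed signal of the list was 2.10, 2.05 and 2.58 in PreGM and 10.9, 9.41 and 10.1 in GMP. Of the dendritic cell genes none of 11 rose and 3 fell (median change -0.77, 0.24 under spike-in scaling, -0.45 under normexp, -0.46 without GMP replicate 2): Itgax (CD11c) by 3.28 ± 0.22, Batf3, a factor of cross-presenting dendritic cells, by 2.98 ± 0.21 and Tcf4, a factor of plasmacytoid dendritic cells, by 1.15 ± 0.16, with 1 of the 2 Tcf4 probes at -0.05.

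Cebpa, Spi1, Irf8 and Klf4, leading factors of the myeloid lineages, were not called. Cebpa stood at 2.06, 1.96 and 2.59 in PreGM and 2.57, 2.61 and 2.37 in GMP (change 0.31 ± 0.31, adjusted p 0.52). Spi1, which encodes PU.1, stood at 0.85, 0.78 and -0.18 and 0.66, 0.94 and 0.52 (change 0.23 ± 0.36, or -0.11 without PreGM replicate 3). Irf8 and Klf4, factors of the monocyte side, changed by -0.32 ± 0.60 and -0.31 ± 0.22. None of these 4 passed, which does not show that they were equal. Of 18 factors tested 3 rose and 4 fell (median change -0.32, 0.70 under spike-in scaling), where 4.61% of all genes rose and 6.55% fell. The falls numbered 1 without PreGM replicate 1 and 2 without PreGM replicate 2, GMP replicate 1 or GMP replicate 2. Gfi1, a repressor that favours neutrophils, stood at 0.64, 0.75 and 2.32 in PreGM and 3.41, 3.42 and 3.43 in GMP (change 2.19 ± 0.63, adjusted p 0.0164), with PreGM replicate 3 again the high array. Cebpd rose by 1.2 ± 0.16 (adjusted p 2.26e-05), and Cebpb by 1.05 ± 0.17 (0.93, under 2-fold, without PreGM replicate 3). Among the 4 that fell was Egr1, which favours macrophages and stood at 5.81, 5.81 and 5.40 in PreGM and 3.54, 3.29 and 3.21 in GMP (change -2.33 ± 0.36, adjusted p 0.000137), and its co-repressor Nab2 fell by 1.72 ± 0.49 and Runx3 by 1.13 ± 0.19, and Maf was not well above background in GMP (at least 1.55-fold lower).

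Factors of stem and multipotent cells fell. Of 24 tested none rose and 12 fell (median change -1.27), and the counts were the same without PreGM replicate 3. With spike-in scaling 4 rose and 6 fell (median -0.25). Gata2 stood at 2.68, 2.61 and 3.09 in PreGM and 0.74, 0.76 and 0.53 in GMP and fell by 2.11 ± 0.21 (adjusted p 1.03e-06). Hlf, a factor of stem cell identity, stood at 1.77, 1.83 and 1.31 in PreGM and -0.41, -0.47 and -0.48 in GMP and fell by 2.09 ± 0.27 (adjusted p 1.84e-05). Meis1, the partner of Hox proteins, fell by 2.11 ± 0.47, Sox4 by 2.11 ± 0.29, Hoxa9 by 1.19 ± 0.25 and Hoxa7 by 1.35 ± 0.22. Mycn and Hoxa10 were not well above background on any GMP array and lay at least 18.8-fold and 2.85-fold lower there, though the second Mycn probe changed by only -0.55. The call of Erg, at -1.61 ± 0.53, was lost without PreGM replicate 3 (-1.50). Runx1 changed by -0.80 ± 0.13, Lmo2 by -0.67 ± 0.17, Myb by 0.47 ± 0.16 and Fli1 by 0.05 ± 0.31, all under 2-fold.

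The erythroid and megakaryocytic factors showed the same direction, with none of 11 higher and 6 lower (median change -1.31). With spike-in scaling 1 was higher and 4 were lower (median -0.29). Gfi1b, the homologue of Gfi1 on the erythroid and megakaryocytic side, stood at 1.88, 1.92 and 2.11 in PreGM and -1.99, -2.14 and -1.92 in GMP and fell by 3.99 ± 0.17 (adjusted p 1.72e-10). Gata1 stood at -0.92, -0.92 and -0.42 in PreGM and -2.94, -3.20 and -2.58 in GMP and fell by 2.15 ± 0.24 (adjusted p 4.57e-06), and its cofactor Zfpm1 (FOG1) fell by 2.60 ± 0.20, from 3.71, 3.68 and 3.81 to 1.32, 1.26 and 0.83. Klf1 fell by 2.36 ± 0.41, Nfia by 1.31 ± 0.13 and Mef2c by 1.31 ± 0.29, the last with PreGM replicate 3 at 2.39 below its pair at 3.55 and 3.54. Among lymphoid factors none of 18 rose and 7 fell (median change -0.81, 0.21 under spike-in scaling), and 4 fell with the slide as a fixed block. Gata3, a T cell factor, stood at -2.26, -2.03 and -1.85 in PreGM and fell (adjusted p 3.12e-06), but it was well above background on only 1 of 3 GMP arrays, so the size of its fall is uncertain. Bcl11b fell by 2.60 ± 0.70, Ikzf2 (Helios) by 2.07 ± 0.47 and Satb1 by 1.83 ± 0.20. Id3 fell by 2.0 ± 0.51, although PreGM replicate 3 at -2.27 lay among the GMP arrays at -2.42, -2.54 and -2.09.

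Surface genes of stem and early progenitor cells fell as well. Of 24 tested 14 fell and 2 rose (median change -1.63, or -1.24 with genes below background at their bound). Only 1 rose without PreGM replicate 1, PreGM replicate 2 or GMP replicate 1. Among the 14 was Slamf1, below background in both fractions. With spike-in scaling 3 rose and 7 fell (median -0.61). Robo4, a guidance receptor of stem cells and endothelium, stood at 1.46, 1.52 and 0.71 in PreGM and -4.75, -5.17 and -4.79 in GMP and fell by 6.13 ± 0.21 (adjusted p 1.93e-11). The arrays of the fractions lay far apart for it. Emcn (endomucin) fell by 3.40 ± 0.24 and Angpt1, the ligand of Tie2, by 2.97 ± 0.34. Outside the lists, the largest falls also held Ctla2a and Ctla2b, a pair of close copies that encode cathepsin inhibitors (-4.75 ± 0.50 and -4.86 ± 0.42), the monocarboxylate transporter Slc16a11 (-5.02 ± 0.25) and the sphingosine phosphate receptor S1pr1 (-4.04 ± 0.30).

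Lymphoid priming genes, expressed at a low level in multipotent progenitors, fell. None of 19 rose and 10 fell (median change -1.39), or 8 without PreGM replicate 3. The median was -0.87 under normexp and -0.92 without GMP replicate 2. With spike-in scaling 1 rose and 5 fell (median -0.37). Dntt, the terminal transferase of antigen receptor rearrangement, gave the largest fall named: it stood at 4.66, 4.87 and 4.24 in PreGM and -2.31, -2.96 and -2.09 in GMP (change -7.05 ± 0.39, adjusted p 1.96e-09), and its 3 probes changed by between -9.50 and -5.67. Flt3, a cytokine receptor of multipotent and lymphoid progenitors, fell by 3.50 ± 0.26, from 0.77, 0.89 and 0.65 to -2.98, -2.91 and -2.32. Vldlr fell by 3.93 ± 0.32. Il7r, the receptor of lymphoid progenitors for IL-7, was not well above background on any GMP array and lay at least 4.58-fold lower there. B cell genes were mostly low in both fractions, with a median level of -4.33 in PreGM and -5.27 in GMP. Their summed signal was 9.04, 8.76 and 10.8 in PreGM and 10.1, 10.4 and 8.98 in GMP, carried by members above that median. Of 11 genes 1 was called, Ms4a1, which was below background in both. None was called without PreGM replicate 2 or 3 or GMP replicate 1 or 2, and 2 fell without GMP replicate 3. Of 12 T and NK cell genes 4 fell (median change -0.66, 0.36 under spike-in scaling), among them the kinase Lck (-2.64 ± 0.21). Without GMP replicate 3, 6 fell and the median was -1.18, whereas 1 fell and 1 rose under normexp. With only probes well above background on all compared arrays, 6 were tested, of which 1 fell and 1 rose. Nkg7, a protein of cytotoxic granules, stood at 5.11, 4.91 and 5.70 in PreGM and 6.98, 7.12 and 6.82 in GMP (change 1.74 ± 0.64, adjusted p 0.0594) and carried the summed signal of that list, 36.9, 32.8 and 54.6 and 128, 141 and 115.

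Megakaryocyte and platelet genes fell at 10 of 18, with 1 higher (median change -1.09). With spike-in scaling 6 fell and 2 rose (median -0.08). F2r, a thrombin receptor, stood at 2.69, 2.57 and 1.42 in PreGM and -1.71, -1.86 and -1.97 in GMP and fell by 4.07 ± 0.37 (adjusted p 4.55e-07). Treml1, a platelet receptor, fell by 3.38 ± 0.25, and Pf4 (platelet factor 4) stood at -0.28, -0.27 and 0.09 in PreGM and -2.74, -2.61 and -2.89 in GMP. Erythroid genes fell at 10 of 17 with none higher (median change -1.63), 1 of them below background in both fractions. Aqp1, the water channel of red cells and endothelium, stood at 1.97, 2.03 and 2.49 in PreGM and -3.54, -3.62 and -3.22 in GMP (change -5.62 ± 0.30, adjusted p 1.24e-09). Car1 and Epor, a carbonic anhydrase and the erythropoietin receptor, fell by 2.62 ± 0.33 and 2.49 ± 0.25. The erythroid median was -0.93 under normexp. With spike-in scaling it was -0.62, and 4 erythroid genes fell and 2 rose. Ermap fell as well (adjusted p 0.000944), but with 1 of 3 GMP arrays well above background the size of its fall is uncertain. The summed erythroid signal was 20.7, 21.5 and 25.0 in PreGM and 7.85, 6.66 and 7.74 in GMP.

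**Figure D3:**
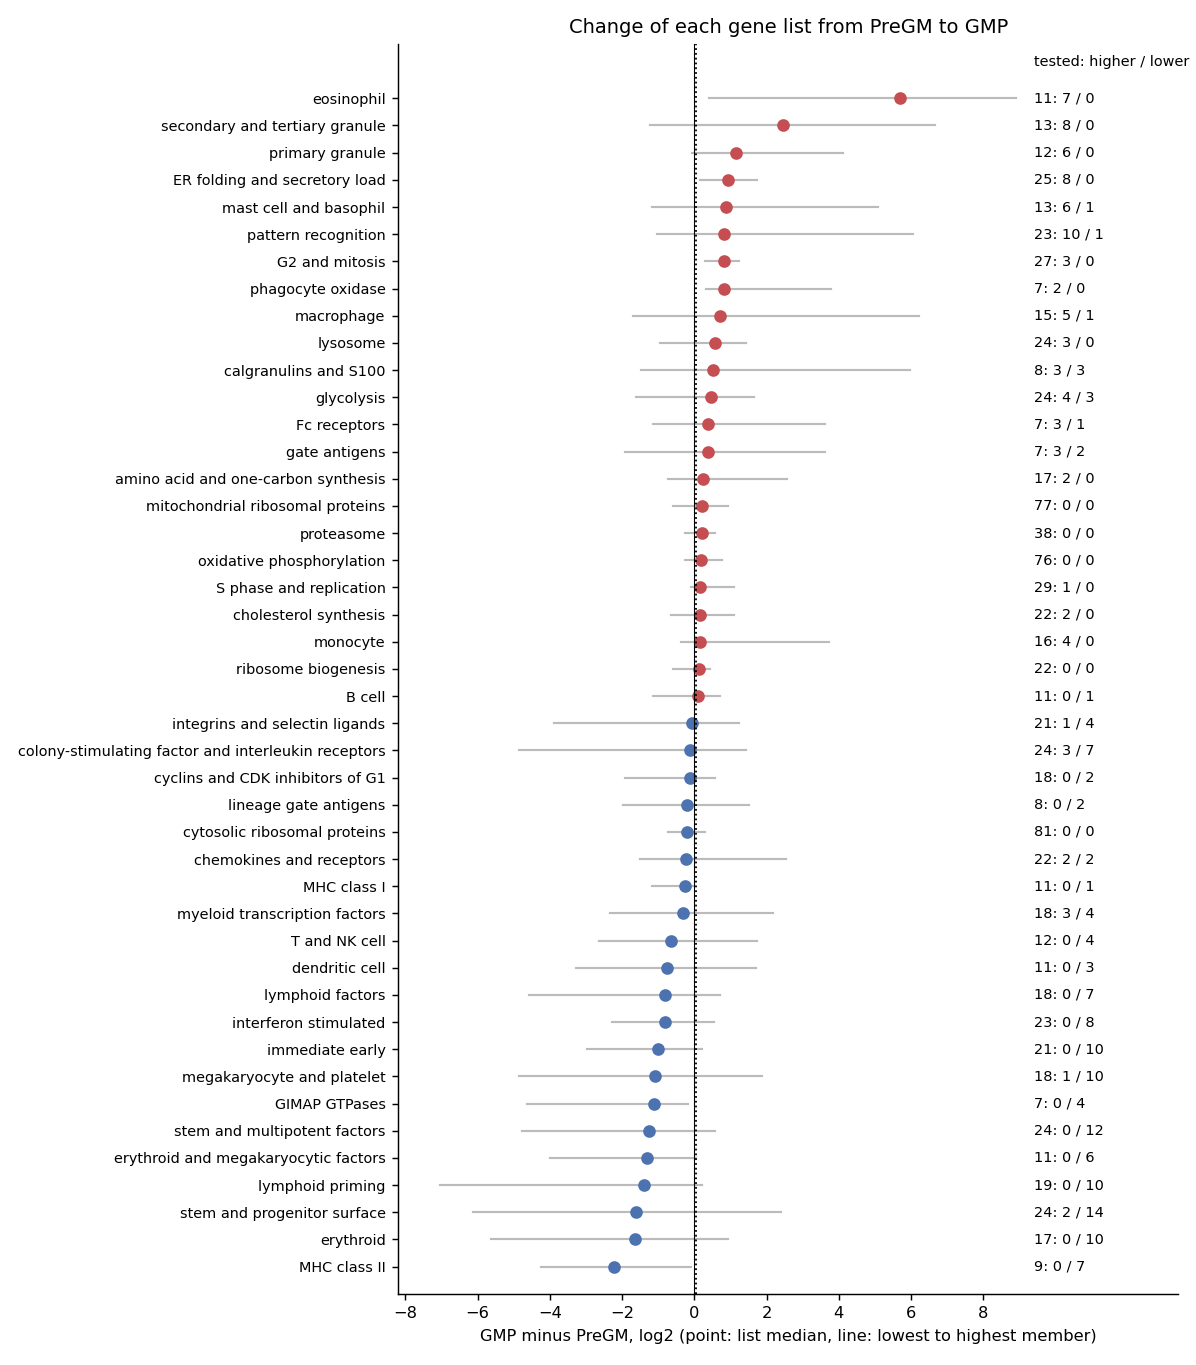
GMP minus PreGM on the log2 scale (x axis) for 44 gene lists: the point is the median of the genes tested, the line runs from the lowest to the highest gene, and the dotted line is the median of all genes (0.03). Figures at the right give the genes tested and how many were called higher and lower. Eosinophil and granule lists lie at the top, with MHC class II, erythroid and stem lists at the bottom. Positions are relative to the 75th percentile, and spike-in scaling shifts them up by about the 0.99 it adds to the median of all probes, which turns the interferon, dendritic cell, lymphoid factor and some other medians positive.

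Receptors for colony-stimulating factors and interleukins were exchanged, with 3 of 24 higher and 7 lower (median change -0.12, 0.90 under spike-in scaling). Csf2ra, the GM-CSF receptor alpha chain, stood at 4.27, 4.10 and 4.26 in PreGM and 5.69, 5.67 and 5.55 in GMP and rose by 1.43 ± 0.13 (adjusted p 6.22e-07). Ifngr1 and Tnfrsf1b, receptors for interferon gamma and TNF, rose by 1.16 ± 0.15 and 1.09 ± 0.21. Csf3r, the G-CSF receptor, stood at 0.70, 0.63 and 0.98 in PreGM and 1.47, 1.34 and 1.22 in GMP (change 0.57 ± 0.31, adjusted p 0.192). Besides Il7r and Flt3, Il1r1, the IL-1 receptor, fell by 2.53 ± 0.20. Il18r1, an IL-18 receptor chain, also fell (adjusted p 0.000467), by an uncertain size since 1 of 3 GMP arrays was well above background.

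Receptors of innate recognition rose at 10 of 23, with 1 lower (median change 0.82; 9, none lower and 0.49 without PreGM replicate 3; 2 lower without GMP replicate 3; median 0.45 under normexp). Clec5a, a lectin that signals through DAP12, stood at -0.50, -0.91 and -0.32 in PreGM and 3.64, 3.34 and 3.54 in GMP (change 4.09 ± 0.32, adjusted p 8.11e-08). Trem3 rose by 3.73 ± 0.36, and the lectin receptors Clec4a2 and Clec4b1 by 6.05 ± 0.49 and 5.32 ± 0.38, with 1 of 3 Clec4a2 probes at 0.75. Tlr4, Tlr1 and Tlr2, Toll-like receptors for bacterial products, were among the genes that rose. The single fall was Cd180, a Toll-like homologue of B cells. All 7 subunits of the phagocyte oxidase had a positive change and 2 passed: Cybb, the catalytic subunit, stood at -2.45, -2.80 and -3.41 in PreGM and 1.02, 0.70 and 0.96 in GMP (change 3.78 ± 0.40), and Cyba rose by 1.14 ± 0.23. Of 7 Fc receptor genes 3 rose and 1 fell: Fcgr4, a further activating receptor, rose by 1.98 ± 0.24, and Fcgrt, which recycles immunoglobulin G, fell by 1.14 ± 0.35, a call lost under 8 settings, among them quantile scaling (-0.97) and each of PreGM replicates 1 and 2 and GMP replicates 1 and 2 left out. The complement component C3 stood at 1.21, 0.93 and 2.14 in PreGM and 5.84, 5.76 and 5.60 in GMP (change 4.31 ± 0.25, adjusted p 3.06e-09).

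Adhesion and chemokine genes changed at few members, and the medians of both lists, -0.06 and -0.23, turned positive under spike-in scaling. Of 21 integrin and selectin genes 1 rose and 4 fell, where 4.61% of all genes rose and 6.55% fell. Itgb2, the beta chain of the leukocyte integrins, rose by 1.24 ± 0.17, while Itgb7 fell by 2.26 ± 0.15 and Itga9 was not well above background on any GMP array and lay at least 9.2-fold lower. Of 22 chemokine and chemoattractant receptor genes 2 rose and 2 fell, and C5ar1, counted as higher, was below background in both fractions. The falls numbered 1 without PreGM replicate 1, PreGM replicate 2 or GMP replicate 2, and the rises 1 without PreGM replicate 3, GMP replicate 1 or GMP replicate 2. Cxcl10 stood at 4.54, 4.36 and 2.37 in PreGM and 6.33, 6.28 and 6.27 in GMP, and its rise of 2.54 ± 0.77, with PreGM replicate 3 as the low array, was not called without that array (1.84). Ccl4 fell by 1.51 ± 0.41. Ncam1, a neural and NK cell adhesion molecule, stood at -2.83, -3.17 and -1.77 in PreGM and 2.29, 2.18 and 2.09 in GMP (change 4.78 ± 0.28), but its 6 probes gave changes between 0.01 and 4.78. Large rises outside the lists were those of the glucosidase Mgam (5.68 ± 0.51), the cortisone reductase Hsd11b1 (5.09 ± 0.34) and the paired receptor Pilrb1 (5.15 ± 0.27).

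The genes of antigen presentation by MHC class II fell. None of 9 genes rose and 7 fell (median change -2.22), or 6 without either PreGM replicate 3 or GMP replicate 3. With spike-in scaling 5 fell (median -1.21). Cd74, the invariant chain, stood at 2.17, 2.0 and 1.94 in PreGM and -1.07, -1.30 and -1.09 in GMP and fell by 3.19 ± 0.19 (adjusted p 3.36e-09). H2-Aa fell by 4.24 ± 0.45, from -0.35, -0.14 and -0.33 to -4.76, -4.50 and -4.29, and H2-Ob by 2.69 ± 0.49. Ciita, the coactivator that switches these genes on, fell by 2.71 ± 0.32 (adjusted p 7.54e-06). All 11 MHC class I genes had a negative change relative to the 75th percentile (median -0.27, which spike-in scaling turned to 0.74), and 1 passed, Nlrc5, their own coactivator (-1.18 ± 0.23). The GIMAP GTPases, encoded in a single cluster and best known in lymphocytes, fell at 4 of 7 (median change -1.11, or -2.10 without GMP replicate 3): Gimap5 by 4.64 ± 0.65, Gimap6 by 4.21 ± 0.30, Gimap1 by 3.62 ± 0.68 and Gimap9 by 1.04 ± 0.14. With spike-in scaling 3 of them fell (median -0.10).

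Interferon-stimulated genes fell at 8 of 23, or 4 under normexp, with none higher (median change -0.82, which spike-in scaling turned to 0.19), among them the GTPase Iigp1 (-2.28 ± 0.33), Ifi44 (-1.80 ± 0.31), the ISG15 protease Usp18 (-1.46 ± 0.17) and Oasl2 (-1.36 ± 0.11). Immediate early genes, which respond within minutes to stimulation and also to cell handling, fell at 10 of 21 with none higher (median change -1.02, 0.00 under spike-in scaling; 9 without PreGM replicate 3). Nr4a1, given above, fell by 2.98 ± 0.69 (adjusted p 0.00396), Nr4a2 by 1.63 ± 0.33, and Btg2, an antiproliferative gene, stood at 3.20, 3.06 and 3.12 in PreGM and 1.67, 1.91 and 1.59 in GMP. Egr3 was not well above background on any GMP array and lay at least 2.26-fold lower.

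Few cell cycle genes passed the 2-fold threshold. With no minimum fold change (limma adjusted p under 0.05), 25 of 27 G2 and mitosis genes were called higher, against 3715 of 29527 probes. For 25 of the 27 genes the GMP arrays lay entirely above the PreGM arrays, against 26.5% of all genes. All 27 G2 and mitosis genes had a positive change relative to the 75th percentile (0.28 to 1.22, median 0.81), and 3 passed 2-fold: the kinases Plk1 (1.22 ± 0.18) and Ttk (1.16 ± 0.26) and the ubiquitin ligase subunit Ube2c (1.19 ± 0.23). The count was 8 without PreGM replicate 1, 5 without PreGM replicate 2 or GMP replicate 2, 7 without GMP replicate 3 and, with the slide as a block, 10 (fixed) or 7 (random). The proliferation antigen gene Mki67 stood at 4.97, 4.84 and 4.73 in PreGM and 5.32, 5.36 and 5.30 in GMP (change 0.48 ± 0.17). Among 29 S phase genes the median change was 0.16, and Cdc45, a replication helicase subunit, was the only one that rose (1.1 ± 0.21). Over all genes 4.61% rose and 6.55% fell. Of 18 genes of the G1 phase 2 fell: Cdk6 and Cdkn1a, a G1 kinase and a kinase inhibitor, fell by 1.28 ± 0.17 and 1.93 ± 0.41, the latter with PreGM replicate 3 at 1.41 below its pair at 3.20 and 3.04. None of 22 ribosome biogenesis, 81 cytosolic ribosomal protein, 77 mitochondrial ribosomal protein, 76 oxidative phosphorylation or 38 proteasome genes was called by limma (1 cytosolic ribosomal gene was lower without PreGM replicate 3, and 1 mitochondrial ribosomal gene higher without either replicate 3; medians 0.11, -0.20, 0.21, 0.18 and 0.21). At an unadjusted limma p under 0.05, whatever the fold, 2, 9, 22, 12 and 12 of them differed. The share of all genes at that threshold is not given here. With no minimum fold change, 7773 of 29527 probes passed even an adjusted p under 0.05, so these counts do not show a change of the lists. Under spike-in scaling 15, 7, 73, 65 and 35 of the genes in these lists were called higher, against 14011 of 29527 probes. The median of the cytosolic ribosomal proteins then turned from -0.20 to 0.81.

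Part of the secretory route rose. Beside the counts in this paragraph, 4.61% of all genes rose and 6.55% fell. All 25 genes of folding and export in the endoplasmic reticulum had a positive change (median 0.93), and 8 passed, or 11 without PreGM replicate 3. Sdf2l1, a folding cofactor, stood at 2.15, 1.82 and 2.12 in PreGM and 3.79, 3.90 and 3.60 in GMP (change 1.73 ± 0.16, adjusted p 4.77e-07). P4hb (protein disulphide isomerase) rose by 1.25 ± 0.11, Ddost, of the glycosylation complex, by 1.21 ± 0.13 and Xbp1, a factor that expands this compartment, by 1.21 ± 0.26. Of 24 lysosomal genes 3 rose, or 5 without GMP replicate 3: the cathepsins Ctsh (1.42 ± 0.16) and Ctsb (1.27 ± 0.18) and the proton pump subunit Atp6v1b2 (1.21 ± 0.22). Glycolysis genes exchanged members, with 4 of 24 higher and 3 lower: Ldhb (a lactate dehydrogenase subunit) rose by 1.66 ± 0.12 and Pfkfb4 by 1.32 ± 0.12, while Aldoc (an aldolase) fell by 1.63 ± 0.19 and the glucose transporter Slc2a3 by 1.51 ± 0.11. Of 17 amino acid and one-carbon genes 2 rose and none fell (1 without PreGM replicate 3): Asns (asparagine synthetase) rose by 1.36 ± 0.20, and the cystine transporter Slc7a11, below background on every PreGM array, lay at least 1.54-fold higher in GMP. Of 22 genes of cholesterol synthesis 2 rose, Fdps and Sc5d, by 1.09 ± 0.20 and 1.0 ± 0.10, the latter by 0.99 and so under 2-fold without PreGM replicate 3; 1 rose without PreGM replicate 2 or GMP replicate 1 and none under quantile scaling.

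Of the 660 genes that rose, 328 (49.7%) reached their highest mean in Mac1Gr1, the mature myeloid fraction, and 234 (35.5%) in GMP itself. A further 48 were highest in Ter119, taken as the mature erythroid fraction. Its median level was 7.04 for secondary and tertiary granule genes and 4.74 for erythroid genes, and the source of those granule transcripts was not tested. Elane, Ms4a3, Prss57 and Prtn3 belonged to those that peaked in GMP, and stood at -0.41, 1.83, 1.65 and 0.39 in Mac1Gr1. S100a8 and Wfdc21 went on to 10.02 and 9.04, and the Ter119 arrays held them as well, at 10.52 and 7.68. Of the 938 genes that fell, 380 (40.5%) were highest in KLS and 51 (5.44%) in PreGM. Some genes that fell were high again in Mac1Gr1: Cd74 stood at 3.99 and Itgax at 2.80 there, against -1.15 and -3.86 in GMP, and Plbd1, a phospholipase-like protein that fell by 4.05 ± 0.45, and Wfdc17, a further WAP domain protein that fell by 4.89 ± 0.42, stood at 7.95 and 5.43. These are means of 3 arrays, given as a description.

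**Figure D4:**
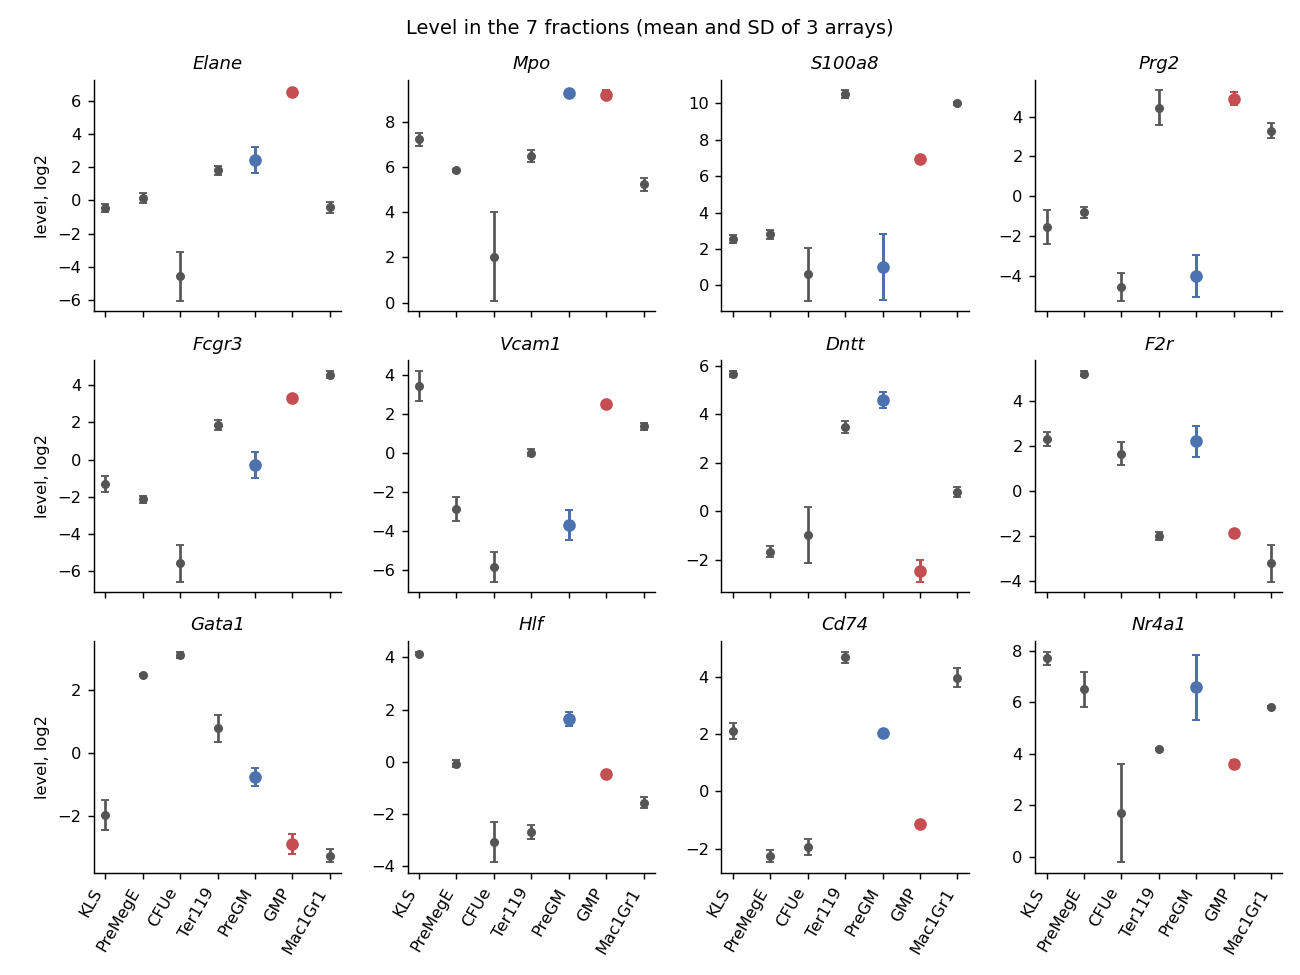
Mean level (log2 of signal over the 75th percentile, y axis) with SD over 3 arrays of 12 genes in the 7 fractions, in the order KLS, PreMegE, CFUe, Ter119, PreGM, GMP and Mac1Gr1, with PreGM in blue and GMP in red. Elane is highest in GMP at 6.54, Dntt is lowest there at -2.45, and Cd74 is low in GMP and high in Mac1Gr1.

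Next, the step was set against the second erythroid step, which shares no arrays with it. The contrast of both changes, GMP minus PreGM less CFUe minus PreMegE, was tested in the same limma fit and called 3498 probes (11.8%) higher and 2475 (8.38%) lower, 20.2% of the probes tested in all. Per gene 1803 (12.6%) were higher and 1361 (9.51%) lower. From PreMegE to CFUe itself 1676 genes (11.7%) rose and 2035 (14.2%) fell. Of the genes that fell from PreGM to GMP, 510 (54.4%) also fell from PreMegE to CFUe, which is 25.1% of the 2035 genes that fell there, and 84 (8.96%) rose. Of the genes that rose, 96 (14.5%) also rose in CFUe, 5.73% of the 1676 that rose there, and 198 (30.0%) fell. Stem surface genes fell at both steps (median changes -1.63 and -2.88), as did immediate early genes (-1.02 and -2.68). The primary granule list parted them, at 1.16 here and -4.0 at the erythroid step, with all 12 genes called higher in the contrast. Erythroid genes parted them the other way (-1.63 and 2.09, 14 of 17 called lower). Growth genes had positive medians at the erythroid step, 1.04 for ribosome biogenesis, 1.07 for mitochondrial ribosomal proteins and 1.11 for oxidative phosphorylation. In the contrast 11 of 22, 27 of 77 and 29 of 76 of them were called lower. These counts hold relative to the 75th percentile: under spike-in scaling the median contrast of all probes was 1.39 (-0.15 relative to the percentile), and 18787 probes were called higher and 352 lower. Of the genes measured above background on each of the 12 arrays, the most positive contrasts were those of Ms4a3 (8.30 ± 0.69, adjusted p 1.21e-07), S100a8 (8.16 ± 0.96) and Ly6c2 (6.97 ± 0.58). The largest negative ones were those of Fads3, of the fatty acid desaturase family (-10.12 ± 0.27, adjusted p 4.87e-13), Dntt (-7.74 ± 0.55) and Sphk1, a sphingosine kinase (-7.32 ± 0.53). Fads3 stood at -0.45, -0.36 and -0.59 in PreGM and -4.06, -3.97 and -3.37 in GMP, and its mean rose from -4.21 in PreMegE to 2.58 in CFUe.

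**Figure D5:**
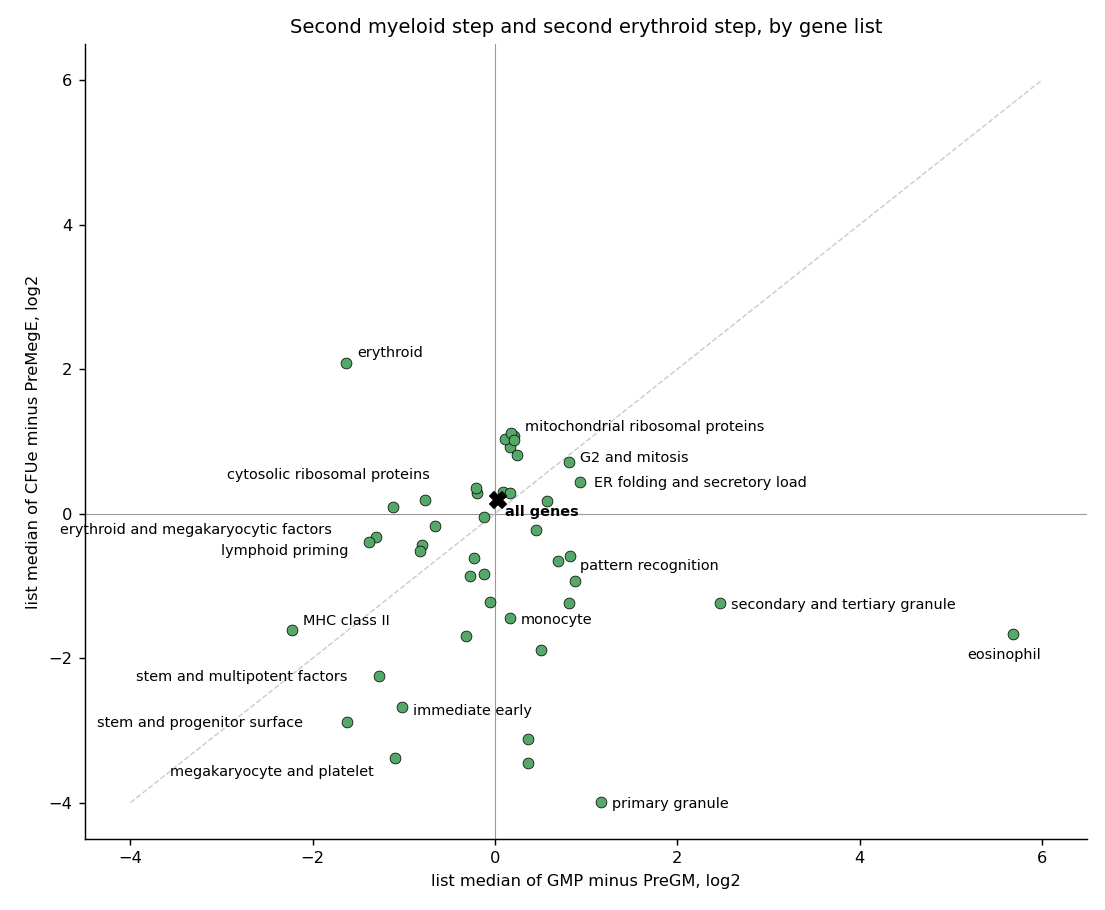
Median change of each of 44 gene lists (points) from PreGM to GMP (x axis, log2) and from PreMegE to CFUe (y axis, log2), with the median of all genes as a cross and equal change as a dashed line. Granule and eosinophil lists lie to the right and below 0, the erythroid list lies to the left and above 0, and the stem lists lie below 0 on both axes.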

How the data were processed

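Per the labels, total RNA of 7 sorted marrow fractions (3 arrays each, 21 in all) was labelled with Cy3 and hybridised to Agilent mouse arrays, with 7 of 10 spike-in sequences used here for the scaling check. The authors extracted spot values with Agilent Feature Extraction 10.7.1.1, according to their processing notes, and deposited background-corrected intensity per spot. They also deposited a series table of log2 values, used only as an alternative because its centring is not stated in the sources used here.

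Control spots and spots marked as outliers (80 to 283 per array) were dropped, spots of a probe were averaged, and log2 intensity minus the 75th percentile of each array was taken. No spot was saturated. A probe was tested where it was well above background on all arrays of some fraction, which left 29527 of 41174. All 7 fractions were fitted together with limma 3.58.1 (R 4.3.3; Python 3.11.15, pandas 2.3.3, numpy 2.4.6 and matplotlib 3.10.9 for tables and plots) and Benjamini-Hochberg adjustment over all probes tested, with 14 residual degrees of freedom and a median residual SD of 0.262. Each gene is represented by whichever of its probes had the highest average level in all 21 arrays. Symbols came from matching the accessions in the files to RefSeq genes (assembly GRCm38.p6, names only), which named 26690 probes (64.8%). In simulated data for GMP against PreGM, 170 of 200 probes changed by 2 on the log2 scale were recovered (85%), with 6 false calls among 29527 probes. Fraction and replicate were read from the titles. The series says nothing of depth for arrays, and 3 arrays a fraction limit the precision.

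The members and lists were chosen with earlier results of these data known, so list counts are descriptions. Named genes were the 15 largest rises and 15 largest falls measured on all 6 arrays without overlap, up to 4 called members of each list, members of the gate, factor and primary granule lists, and the 3 largest and 3 smallest second-step contrasts. Other members that were not called, such as Ltf and Csf3r, were named after their values were seen. Replicate numbers were checked for pairing: deviations of same-numbered PreGM and GMP arrays correlated at 0.17, -0.37 and -0.16, so the numbers do not pair. Alternatives were quantile, spike-in and series-table scaling, normexp background correction (offset 50, on median pixel signals), 2 other filters on dim probes, the slide as a fixed or random block, a replicate block, the compared fractions alone, 1 probe per gene, no minimum fold change, and each array left out. A few list members are counted but not reported here by name.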

Additional observations from a re-analysis of the deposited data

Results flagged for a closer look

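The change from PreGM to GMP differed from that from PreMegE to CFUe at 5973 probes (limma contrast, adjusted p under 0.05 and at least 2-fold). The contrast was 8.30 for Ms4a3, 8.16 for S100a8 and 6.97 for Ly6c2, and -10.12 for Fads3, -7.74 for Dntt and -7.32 for Sphk1. For S100a8, PreGM replicate 3 stood at 3.07 against 0.11 and -0.23 on the other 2 PreGM arrays. The second Sphk1 probe changed by -0.02 from PreGM to GMP, where the probe named changed by -1.63.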

How the results depend on the processing

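In place of 3061 probes called between GMP and PreGM, spike-in scaling called 14516, normexp background correction 1645 (644 higher, 1001 lower), 1 probe per gene 1610 of 14312 tested and no minimum fold change 7773. In place of 5973 probes in the contrast of the second steps, the counts were 19139 under spike-in scaling, 3758 with only probes well above background on all 12 arrays, 3197 with 1 probe per gene and 10115 with no minimum fold change. Normexp moved the higher calls of the contrast from 3498 to 1937. Leaving out each array in turn gave 2677 to 3498 and 5559 to 6467. With only probes well above background on all compared arrays the total for GMP against PreGM stayed within 1.5 times, but its lower calls moved from 1878 to 1217 (858 higher). The total counts under the other settings stayed within 1.5 times. Since the replicate numbers do not pair the arrays, the replicate block is only an alternative, with 3055 and 5960 probes called.

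Of 153 named genes called between GMP and PreGM, none changed sign under any setting. Calls were lost for 34 of them under spike-in scaling, 16 under normexp, 13 with the slide as a fixed block, 5 under quantile scaling, 5 with the compared fractions alone, 4 in the series table, 1 with the slide as a random block, 1 with no filter and 1 to 9 with each array left out, most often for Erg (9 settings), Fcgrt and Sc5d (8 each), Cxcr3 and Gimap9 (7 each) and Maf and Nab2 (6 each). Among 31 named genes that were not called, sign changes were Fli1 at -0.074 and Mpo at 0.16 under quantile scaling, Fli1 at -0.040 and Mpo at 0.17 in the series table, and Fli1 at -0.11 with the slide as a fixed block. Under spike-in scaling they were Cpa3 0.41, Irf8 0.70, Klf4 0.70, Lmo2 0.34, Mmp8 0.24, Mpo 0.94 and Runx1 0.22. Under normexp they were C1qb -0.016, C1qc -0.0068 and Il5ra -0.17. With each array left out in turn, C1qb ranged from -0.0078 to 0.21, Fli1 from -0.023 to 0.11, Mpo from -0.15 to 0.027 and Spi1 from -0.11 to 0.41. The cause was not tested. Genes near background have only a bound in the fraction where they were dim.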
